A study of Mus musculus with 6 samples.

Results

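The values below describe 10 genes that control the making of mitochondria and the cell's energy sensor AMPK, in M II oocytes of naturally aged mice matured with or without quercetin, a plant flavonol. The 10 genes were taken by symbol from the 53465 Ensembl genes counted in each pool, and all 10 were found. They are 3 transcriptional coactivators (*Ppargc1a*, *Ppargc1b* and *Pprc1*), 3 DNA-binding factors (*Nrf1*, *Gabpa* and *Esrra*), 3 subunits of AMPK (*Prkaa1*, *Prkaa2* and *Prkab1*) and the kinase that switches AMPK on (*Stk11*, which encodes LKB1). RNA was sequenced from 3 control pools, matured without quercetin, and 3 pools matured with 10 μM quercetin. Each pool held 15 oocytes of 3 female Kunming (KM) mice aged 9 to 10 months. In both groups the mice were primed with PMSG, the cumulus cells were pipetted off, and the oocytes matured in vitro for 16 h in M16 medium. Quercetin was brought in from a DMSO stock, and the sources used here do not state whether the control medium held DMSO. It is not stated either whether pools shared mice, so the p-values measure the spread between these pools, which can be partly technical.

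The PGC-1 coactivators do not bind DNA themselves. They dock on factors such as NRF1, GABP and the estrogen-related receptors, which sit in the promoters of nuclear genes for the respiratory chain and for the copying and reading of mitochondrial DNA. AMPK is a complex of a catalytic α, a scaffolding β and an AMP-sensing γ subunit; LKB1 phosphorylates its α subunit when energy falls, and active AMPK phosphorylates PGC-1α among many targets. A fully grown oocyte transcribes little, so the transcripts of an M II oocyte are largely those stored during growth and not yet degraded.

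Total counts were 8671210, 7880467 and 8905681 in control replicates 1 to 3, and 8465142, 9938743 and 8109613 in quercetin replicates 1 to 3. CPM below are counts relative to the library size after TMM scaling, which takes most genes as level between pools, and a gene at 3 counts, used as the floor, had 0.328 to 0.375 CPM. Floors and counting limits allow for sampling of reads alone, since amplified reads are not independent molecules. On the first principal component, with 32% of the variance, the pools did not sort by treatment. Quercetin replicates 1 and 2 lay at -40.6 and -32.5 on it, and quercetin replicate 3 at 32.6, next to control replicate 2 at 32.7. Quercetin replicate 3 is therefore named wherever it decides a value.

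The labelled cell type was checked against marker genes. All 12 oocyte markers had counts, but *Figla* had at most 12 in any pool and was too low to be tested. By CPM averaged over the 6 pools *Gdf9* was the highest (6223 CPM, 46443 to 59906 counts per pool), followed by *Oosp1* (5971 CPM, 39879 to 65215 counts). *Oosp1* had more counts than *Gdf9* in control replicates 1 and 2 and quercetin replicate 2. The list summed to 16058, 19949 and 17585 CPM in the control pools and to 17612, 19306 and 18864 CPM in the quercetin pools. Of the 11 oocyte markers tested, 6 had a log2 fold change above 0 and 5 below. *Ooep*, a maternal gene needed by the early embryo, was the 1 marker of this list at an unadjusted p under 0.05 (1.89% of tested genes were lower at it), with 4367, 8081 and 6157 counts in the control pools and 1885, 2454 and 5410 in the quercetin pools. Its groups overlapped through quercetin replicate 3 (log2 fold change -0.92, interval from -1.79 to -0.05, adjusted p = 0.988 in edgeR's test; exact permutation test, p = 0.2). *Gdf9* was the 1 marker of the 11 whose quercetin pools (5988 to 7481 CPM) all lay above the controls (5566 to 5846 CPM; 5.42% of tested genes did so), and its groups overlapped when scaled by library size alone. Of 17 markers of cumulus and granulosa cells, *Amh*, *Amhr2*, *Foxl2*, *Ptx3* and *Wt1* were at 0 in every pool. That list summed to 101, 81.7 and 97.8 CPM in the control pools and to 109, 110 and 108 CPM in the quercetin pools, and its most abundant gene was *Cyp19a1* with 486 to 692 counts. Most of each sum was *Cyp19a1*, with 65.3, 58.2 and 68.6 CPM in the control pools and 74.7, 75.7 and 72.9 CPM in the quercetin pools. On this scale the summed level was higher in each quercetin pool than in each control pool. Scaled by library size alone the groups overlapped, with 104, 86.5 and 97.9 CPM in the control pools and 103, 102 and 114 CPM in the quercetin pools. *Cyp19a1* itself and *Kitl*, a marker named after its values were seen, lay higher in each quercetin pool than in each control pool on both scales (by library size alone, 69.6 to 76.6 against 61.7 to 68.7 CPM and 11.2 to 13.1 against 8.12 to 8.65 CPM). Of all tested genes 5.42% did so after TMM scaling and 3.9% by library size alone. The log2 fold change of *Cyp19a1* was 0.22, with an interval from -0.12 to 0.55. The other tested markers of this list, *Has2*, *Nr5a2* and *Ptgs2*, overlapped between groups on both scales. The part of these markers in the values below was not tested. Of 5 immune markers *Cd3e* was at 0, and the list summed to between 3.25 and 4.22 CPM, mostly *Cd68*. Of 7 markers of stroma, endothelium and blood, *Col1a1*, *Cdh5*, *Hbb-bs* and *Hba-a1* were at 0, and the sum of 30.7 to 38.0 CPM was almost wholly *Pecam1*.

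Of the 10 genes, 8 had enough counts for edgeR's filter and were tested among 11842 genes; *Ppargc1a* and *Esrra* were not. None of the 8 passed an adjusted p under 0.05 with a fold change over 2 in edgeR's quasi-likelihood test, where 0% of all tested genes passed. At an unadjusted p under 0.05 the count was again 0 of 8, against 477 of 11842 genes (4.03%). Without quercetin replicate 3 it was 0 of 8 against 12.8%, and without control replicate 2 it was 0 of 8 against 1.98%. At the adjusted threshold DESeq2, edgeR's likelihood ratio test and limma-voom each called 0 of the 8, against 12, 16 and 0 of 11842 genes. DESeq2 gave no adjusted p for *Ppargc1b*, *Pprc1* and *Gabpa*, so it could not call these. With no filter beyond 1 count, *Esrra* was the 1 of the 10 genes under that unadjusted threshold in edgeR's quasi-likelihood test (adjusted p = 0.834), from counts in a single pool, where 3.19% of all 24476 genes were under it. In 0 of the 10 genes did the quercetin pools lie all above the control pools (5.42% of tested genes did), and in 0 did they lie all below (5.17%). The median log2 fold change, quercetin over control, was 0.07 over the 8 genes (6 above 0) and -0.03 over all tested genes; scaled by library size alone it was 0.0014 over the 8 (4 above 0) and -0.11 over all. Since each value is a share of a pool's RNA, a change in the number of oocytes carrying a transcript and a change in the amount per oocyte cannot be told apart.

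Levels of different genes were compared as CPM per kilobase of exon (RPKM), averaged over the 6 pools. How evenly the libraries captured the transcripts of different genes was not tested. *Prkab1*, the scaffolding β1 subunit, stood alone at the top with 30.4 ± 2.65 RPKM (SD, n = 6), and its lowest pool (25.3) lay above the highest pool of *Nrf1* (2.11), the next gene. *Nrf1* followed with 1.55 ± 0.307, *Prkaa1* with 1.35 ± 0.420, *Stk11* with 1.17 ± 0.387 and *Ppargc1b* with 0.833 ± 0.254 RPKM. Below these came *Prkaa2* with 0.680 ± 0.312, *Pprc1* with 0.501 ± 0.153 and *Gabpa* with 0.257 ± 0.170 RPKM. From *Nrf1* downward each gene's pools overlapped those of the next gene, so the order of neighbours is not set beyond the spread of the pools. Genes further apart did separate: the lowest pool of *Nrf1* (1.20) lay above the highest of *Prkaa2* (1.18), *Pprc1* (0.636) and *Gabpa* (0.506), that of *Prkaa1* (0.966) above the highest of *Pprc1* and *Gabpa*, and those of *Stk11* (0.549) and *Ppargc1b* (0.575) above the highest of *Gabpa*. By merged exons the median of 11833 tested genes with a known length was 3.29 RPKM. On that length scale *Prkab1* was the one gene of the 10 above it, and 86.6% of tested genes were lower than *Prkab1*. Annotated length matters most for *Nrf1*, whose merged exons span 10282 bases and whose longest transcript has 4042: by the latter it reached 3.94 RPKM and kept its second place, while *Stk11* (1.47) moved ahead of *Prkaa1* (1.35).

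**Figure D1:**
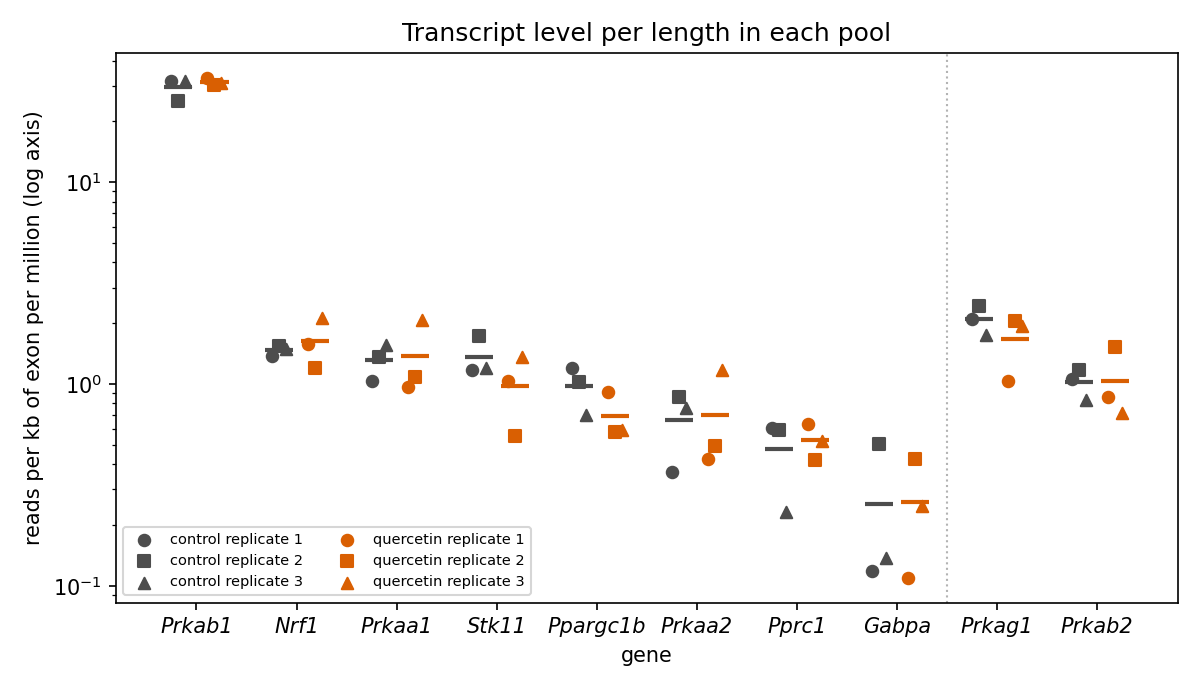
Level of each gene in RPKM (log axis) in the 3 control pools (grey) and the 3 quercetin pools (orange), with bars at the group means; right of the dotted line are 2 further AMPK subunits. *Ppargc1a* and *Esrra* are not drawn, because they were at 0 in some pools. *Prkab1* lies at 25.3 to 32.8 in all 6 pools, and the groups overlap in every gene drawn.

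Among the coactivators, *Ppargc1a* (ENSMUSG00000029167, chr5:51454250-51567726), which encodes PGC-1α, was barely detected. It had 4, 0 and 1 counts in the control pools and 0, 0 and 2 in the quercetin pools. The floor of 3 counts was passed in 1 of 6 pools, so no fold change is given, and a difference was not detectable at this depth. *Ppargc1b* (ENSMUSG00000033871, on chromosome 18), which encodes the related PGC-1β, had 43, 34 and 25 counts in the control pools and 29, 21 and 20 in the quercetin pools. The 2 highest pools were controls and the 2 lowest were quercetin pools, but control replicate 3 lay below quercetin replicate 1. Mean levels were 3.90 ± 1.01 and 2.75 ± 0.751 CPM (SD, n = 3 each), a log2 fold change of -0.50 with a 95% interval from -1.29 to 0.28 (adjusted p = 0.988; exact permutation test, two-sided, p = 0.2; its smallest possible p with 3 and 3 pools is 0.1). *Pprc1* (ENSMUSG00000055491, chr19:46044886-46072915), which encodes the remaining coactivator of this family, had 34, 31 and 13 counts in the control pools and 32, 24 and 28 in the quercetin pools. Its one low pool was control replicate 3, and the other 5 pools lay between 24 and 34 counts. Exons of *Pprc1* share 2.82% of their length with *Ldb1* on the opposite strand, which had 92, 68 and 57 counts in the control pools and 61, 40 and 44 in the quercetin pools. The log2 fold change of *Pprc1* was 0.14, with an interval from -0.79 to 1.07 (adjusted p = 0.995), and it was -0.18 without control replicate 3 and -0.02 without quercetin replicate 1. The coactivator pool that could be measured in these oocytes was thus *Ppargc1b* and *Pprc1* transcript, and *Ppargc1a* contributed at most 4 counts to any pool.

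Among the DNA-binding factors, *Nrf1* (ENSMUSG00000058440, chr6:30047988-30153458), which encodes a factor that binds promoters of many mitochondrial genes, was the best measured. It had 126, 132 and 137 counts in the control pools and 130, 113 and 185 in the quercetin pools. The controls lay close together, while the quercetin pools held both the lowest and the highest value. In CPM this was 15.1 ± 0.894 against 16.8 ± 4.70, a log2 fold change of 0.15 with an interval from -0.41 to 0.71 (adjusted p = 0.988; exact permutation test, p = 0.7). The highest pool was quercetin replicate 3, and without it the log2 fold change was -0.08.

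*Gabpa* (ENSMUSG00000008976, chr16:84834925-84863779), which encodes the DNA-binding subunit of GABP, had 6, 24 and 7 counts in the control pools and 5, 22 and 12 in the quercetin pools. Replicate 2 was high in both groups, and the groups overlapped fully (log2 fold change 0.06, interval from -1.46 to 1.58, adjusted p = 0.999). The sign turned without control replicate 1 (-0.28), control replicate 3 (-0.23) or quercetin replicate 2 (-0.48), and when scaled by library size alone (-0.04), while without control replicate 2 the value was 1.02. The start of *Gabpa* overlaps that of *Atp5j*, a subunit gene of ATP synthase on the opposite strand. Exons of both genes share 6.98% of the *Gabpa* exon length, from chr16:84834925-84835023 to chr16:84835421-84835543. *Atp5j* had 15, 52 and 17 counts in the control pools and 14, 41 and 25 in the quercetin pools, which is the same order of pools as in *Gabpa*. For each count on *Atp5j* there were between 0.357 and 0.537 counts on *Gabpa* in every pool, while *Gabpa* itself ranged from 5 to 24 counts. Whether counting used the strand is not given in the sources used here, so reads of the 2 genes from the shared exons cannot be told apart, here or in the other overlaps named. The partner of GABPα was more abundant: *Gabpb1*, named here after its values were seen, had 39.4 ± 3.11 CPM in control and 37.7 ± 4.36 CPM in quercetin pools, and 5.09 and 4.86 RPKM against 0.254 and 0.260 RPKM for *Gabpa*; by the longest transcript of each gene *Gabpb1* was 15.3 to 73.5 times as abundant.

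*Esrra* (ENSMUSG00000024955, chr19:6910977-6921813), which encodes the estrogen-related receptor ERRα, had 0 counts in all 3 control pools. In the quercetin pools it had 0, 0 and 17 counts. The transcript was therefore seen in quercetin replicate 3 alone, at 1.99 CPM, and since the other 2 quercetin pools were at 0 no fold change between the groups is given. Exons of *Esrra* share 3.74% of their length with *Trmt112* on the opposite strand and with a microRNA gene, *Mir6990*. *Trmt112* was lowest in that same pool, with 666, 659 and 778 counts in the control pools and 704, 876 and 545 in the quercetin pools, and *Mir6990* had 0 counts in all 6. The relatives of *Esrra*, also named after their values were seen, were present throughout: *Esrrg* had 317, 323 and 330 counts in the control pools and 250, 295 and 325 in the quercetin pools, and *Esrrb* had between 50 and 108 counts. Per length, *Esrrg* was 2.91 to 6.18 times as abundant as *Esrrb* in each pool, so that the estrogen-related receptor transcripts of these oocytes were mostly those of *Esrrg*.

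Of the AMPK subunits, *Prkaa1* (ENSMUSG00000050697, chr15:5143861-5181899), the catalytic α1 subunit, had 43, 53 and 65 counts in the control pools and 36, 46 and 82 in the quercetin pools. The quercetin pools held the lowest and the highest value, and the means of 6.15 ± 1.25 and 6.38 ± 2.82 CPM were nearly equal (log2 fold change 0.05, interval from -0.74 to 0.84, adjusted p = 0.999). *Prkaa2* (ENSMUSG00000028518, chr4:105029874-105109890), the catalytic α2 subunit, had 26, 57 and 54 counts in the control pools and 27, 36 and 80 in the quercetin pools. Replicate 1 was low in both groups and quercetin replicate 3 was the highest pool, as it was for *Prkaa1* (log2 fold change of *Prkaa2* 0.08, interval from -0.97 to 1.13, adjusted p = 0.998). Without quercetin replicate 3 the log2 fold change was -0.36 for *Prkaa1* and -0.52 for *Prkaa2*, and without control replicate 1 it was -0.09 and -0.21, so that the sign of both depended on which pools were included. That of *Prkaa1* was also below 0, by less than 0.01, when scaled by library size alone, in limma-voom and with the replicate number as a term. In each pool *Prkaa2* had less transcript per length than *Prkaa1*, with a ratio from 0.353 to 0.628.

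*Prkab1* (ENSMUSG00000029513, chr5:116013586-116024508), the β1 subunit, had 868, 647 and 863 counts in the control pools and 805, 849 and 811 in the quercetin pools. Control replicate 2 was the lowest pool and the other 5 lay between 92.8 and 101 CPM. The means were 90.5 ± 11.2 and 96.2 ± 3.95 CPM, and the log2 fold change was 0.09 with an interval from -0.26 to 0.43 (adjusted p = 0.988; exact permutation test, p = 0.7). This was the narrowest interval of the 8 tested genes, and it leaves room for a change from 0.836-fold to 1.35-fold. Without control replicate 2 the log2 fold change was -0.01.

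With the remaining subunit genes added, the AMPK subunits differed widely in reads per length. *Prkab2*, the other β subunit, had 48, 50 and 38 counts in the control pools and 35, 71 and 31 in the quercetin pools, and per length *Prkab1* was 19.9 to 43.5 times as abundant. Of the γ subunits, named here after their values were seen, *Prkag1* had 18 to 44 counts, *Prkag2* had 0 to 9 and *Prkag3* had 0 in every pool. Summed per length, the β subunits came to 26.5 to 33.6 RPKM, the α subunits to 1.39 to 3.24 and the γ subunits to 1.17 to 2.42. The β sum exceeded the α and γ sums in all 6 pools, while the α and γ sums overlapped each other. Of the 4 subunit genes outside the 10, 2 were tested, and 0 passed the adjusted threshold (0% of tested genes did) or an unadjusted p under 0.05 (2.14% were higher and 1.89% lower).

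*Stk11* (ENSMUSG00000003068, chr10:80115803-80130682), which encodes LKB1, had 48, 66 and 49 counts in the control pools and 38, 23 and 53 in the quercetin pools. The lowest 2 pools were quercetin replicates 1 and 2, and quercetin replicate 3 lay within the controls. Mean levels were 6.26 ± 1.43 and 4.49 ± 1.86 CPM, a log2 fold change of -0.48 with an interval from -1.30 to 0.35 (adjusted p = 0.988; exact permutation test, p = 0.4). The end of *Stk11* shares 5.07% of the gene's exon length with *Cbarp* on the opposite strand, which had 6 counts or fewer in each pool. Leaving out quercetin replicate 2 brought the log2 fold change to -0.19 and leaving out quercetin replicate 3 brought it to -0.79.

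**Figure D2:**
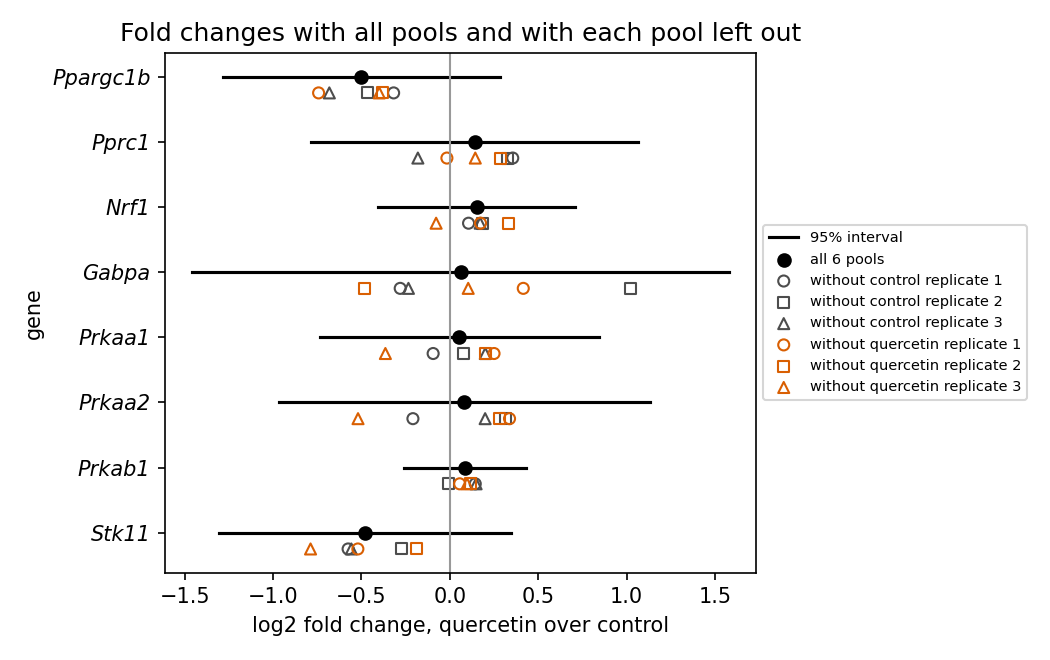
Log2 fold change of the 8 tested genes, quercetin over control, with all 6 pools (black point, line for the 95% interval) and with each pool left out in turn (open symbols). All 8 intervals include 0, and without quercetin replicate 3 the values of *Nrf1*, *Prkaa1* and *Prkaa2* lie below 0. So do *Gabpa*, *Prkaa1* and *Prkaa2* without control replicate 1, *Prkab1* without control replicate 2, *Pprc1* and *Gabpa* without control replicate 3, *Pprc1* without quercetin replicate 1 and *Gabpa* without quercetin replicate 2.

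LKB1 is active as a complex with a STRAD pseudokinase and the scaffold MO25. Of 7 genes for its partners and for other AMPK kinases, 5 were tested and 0 passed an adjusted p under 0.05 (0% of tested genes did). At an unadjusted p under 0.05 there was 1 higher and 0 lower, against 2.14% of tested genes higher and 1.89% lower. *Stradb*, which encodes STRADβ, was the most abundant of them and the one that was higher. It had 850, 661 and 879 counts in the control pools and 1938, 930 and 1519 in the quercetin pools. Quercetin replicates 1 and 3 lay far above the controls (242 and 178 against at most 98.6 CPM) and quercetin replicate 2 lay little above them (102 CPM). It was the 1 of the 5 whose quercetin pools all lay above the controls after TMM scaling (5.42% of tested genes did), and 0 lay all below (5.17%). Scaled by library size alone, quercetin replicate 2 (93.6 CPM) fell below control replicates 1 and 3 (98.0 and 98.7 CPM), so that the groups overlapped (exact permutation test, p = 0.3). The means were 91.0 ± 10.3 and 174 ± 70.3 CPM, a log2 fold change of 0.93 with an interval from 0.30 to 1.57 (adjusted p = 0.988; exact permutation test, p = 0.1, the smallest this design allows). Leaving out 1 pool at a time gave log2 fold changes from 0.62 to 1.21. Per length, *Stradb* was 9.37 to 11.8 times as abundant as its paralog *Strada* in the control pools and 19.8 to 29.2 times in the quercetin pools. Relative to *Stk11* it was 6.32 to 11.3 times as abundant in the control pools and 18.1 to 32.2 times in the quercetin pools; by the longest transcript of each gene these were 11.9 to 21.4 and 34.1 to 60.7 times. Both ratios were formed after the values of *Stradb* were seen. *Camkk1* had 0 counts in every pool and *Camkk2* had 0 to 11, so of the calcium-dependent AMPK kinases little transcript was seen in either group.

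Of 12 AMPK-related kinases that LKB1 also activates, 5 were tested and 0 passed at either threshold (0% and 4.03% of tested genes did). All 5 had a log2 fold change below 0, as 6352 of the 11842 tested genes had, with a median of -0.21 against -0.03 over all. Scaled by library size alone, all 5 and 7741 of all tested genes were below 0, and the medians were -0.29 and -0.11. The groups overlapped in each of the 5 (5.42% of tested genes lay all above and 5.17% all below). *Mark2*, a microtubule affinity-regulating kinase, was the most abundant, with 94.2 ± 19.4 CPM in control and 81.4 ± 14.3 CPM in quercetin pools (log2 fold change -0.21, interval from -0.67 to 0.25). *Nuak2* and *Brsk1* had no counts in any pool.

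Of 14 genes for AMPK substrates and the folliculin complex, 13 were tested and 0 passed an adjusted p under 0.05 (0% of tested genes did). At an unadjusted p under 0.05 there were 0 higher (2.14% of tested genes) and 1 lower (1.89%). The lower gene was *Ulk1*, a kinase that starts autophagy. It had 150, 131 and 156 counts in the control pools and 100, 103 and 103 in the quercetin pools. The quercetin pools lay close together and all below the controls (16.7 ± 0.904 against 11.9 ± 0.625 CPM; log2 fold change -0.48, interval from -0.93 to -0.03, adjusted p = 0.988; exact permutation test, p = 0.1). Leaving out 1 pool at a time gave *Ulk1* log2 fold changes from -0.52 to -0.43. Its unadjusted p of 0.0376 in edgeR's test did not stay under 0.05 in 9 of 14 alternatives, among them DESeq2 (0.0665), edgeR's likelihood ratio test (0.0635) and all but 1 of the fits with a pool left out (up to 0.109). *Mff*, a receptor for the mitochondrial fission GTPase and an AMPK substrate, was the most abundant gene of the list, with 242 ± 55.7 CPM in control and 199 ± 52.0 CPM in quercetin pools, and its groups overlapped. In 2 of the 13 genes the quercetin pools all lay below the controls, *Ulk1* and *Foxo3* (5.17% of tested genes did), and in 0 all above (5.42%). The median log2 fold change was -0.07, against -0.03 over all tested genes, with 5 values above 0 and 8 below (2 and 11 when scaled by library size alone).

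**Figure D3:**
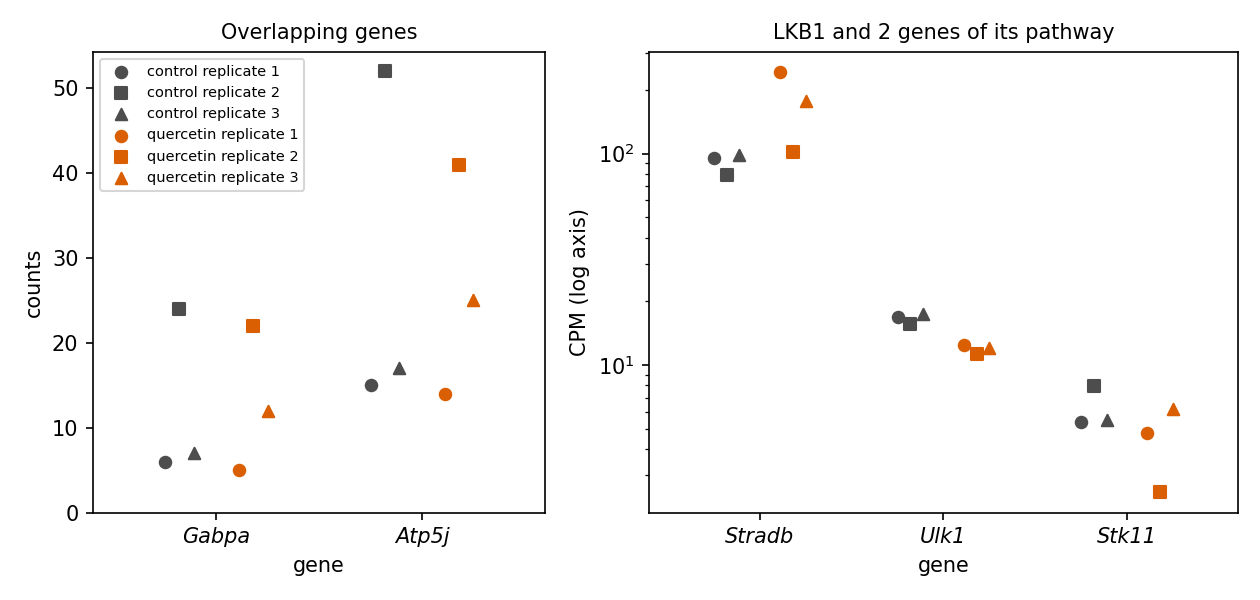
Left, counts on *Gabpa* and on *Atp5j*, whose exons overlap, in each pool; right, CPM (log axis) of *Stradb*, *Ulk1* and *Stk11* in each pool, control in grey and quercetin in orange. Counts on *Gabpa* run from 5 to 24 in the same order of pools as those on *Atp5j*, *Stradb* is higher (not so for quercetin replicate 2 when scaled by library size alone) and *Ulk1* lower in each quercetin pool than in each control pool, and *Stk11* overlaps.

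Among 18 partners and relatives of the biogenesis factors, 17 were tested and 0 passed at either threshold (0% and 4.03% of tested genes did). Of these, 4 had a log2 fold change above 0 and 13 below, with a median of -0.16 (1 above and 16 below when scaled by library size alone). Over all 11842 tested genes 6352 were below 0, with a median of -0.03 (7741 and -0.11 when scaled by library size alone). The quercetin pools all lay below the controls in 2 of the 17, *Ppard* and *Creb1* (5.17% of tested genes did), and all above in 0 (5.42%). Scaled by library size alone, *Gabpb1* was also all below, and 7.3% of tested genes were. *Pparg*, a nuclear receptor that PGC-1 proteins bind, was the most abundant by CPM, with 77.7 ± 12.9 CPM in control and 83.1 ± 13.0 CPM in quercetin pools.

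Genes known to be driven by NRF1 or GABP lie downstream of these factors, but stored transcripts do not measure the factors' present activity. Of 16 such genes, 13 were tested and 0 passed at either threshold (0% and 4.03% of tested genes did). Of the 13 log2 fold changes 6 were above 0 and 7 below, with a median of -0.05 (5, 8 and -0.14 when scaled by library size alone). Over all 11842 tested genes 6352 were below 0, with a median of -0.03 (7741 and -0.11 when scaled by library size alone). *Atp5b*, the β subunit of ATP synthase, was the most abundant, with 3280, 2920 and 3387 counts in the control pools and 3518, 3729 and 3489 in the quercetin pools. It was the 1 of the 13 genes whose quercetin pools all lay above the controls after TMM scaling (5.42% of tested genes did), with 366 ± 15.0 CPM in control and 419 ± 17.8 CPM in quercetin pools. Yet its log2 fold change of 0.20 had an interval from -0.09 to 0.48 (adjusted p = 0.988 in edgeR's test, and p = 0.1 in the exact permutation test). Scaled by library size alone, quercetin replicate 2 (375 CPM) lay below control replicates 1 and 3 (378 and 380 CPM) and the groups overlapped (exact permutation test, p = 0.3). *Twnk*, the helicase that unwinds mitochondrial DNA, was the 1 of the 13 genes whose quercetin pools all lay below the controls (5.17% of tested genes did), with 45, 35 and 41 counts against 27, 18 and 31. *Tfam*, which packs and transcribes mitochondrial DNA, had 22, 27 and 22 counts in the control pools and 5, 12 and 33 in the quercetin pools. In *Tfam* quercetin replicates 1 and 2 lay below all controls. Quercetin replicate 3 was its highest pool, as it was in *Nrf1*, *Prkaa1* and *Prkaa2*. *Twnk* and *Tfam* were named after their values were seen.

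*Prkab1* was both the most abundant of the 10 genes per length and the most abundant AMPK subunit. Over the 6 pools, the tested genes whose log2 CPM followed it most closely were *Adam7* (Pearson r = 0.997), *Gm7210* (0.992) and *Xlr4a* (0.989), out of 11841 genes. These values share their libraries and depth and describe 6 points, of which control replicate 2 is the lowest in each: *Adam7* had 11 counts there and 17 to 19 elsewhere, and *Xlr4a*, which has close copies in the genome that reads can match, had 106 there and 174 to 184 elsewhere.

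Promoter sequences of RefSeq on GRCm38.p6, from 250 bases before to 50 after the start, were on hand for 9 of the 10 genes and for 14 of the 16 target genes; *Ppargc1b*, *Cox4i1* and *Top1mt* had no entry. They were searched on both strands for GCGCNTGCG (NRF1), CCGGAAG (GABPA) and TCAAGGTCA (estrogen-related receptors). The NRF1 letters were in 1 of the 9 genes and 6 of the 14 targets, against 6.31% of 32851 promoters. The GABPA letters were in 2 of the 9 and 7 of the 14, against 8.86% of promoters. The letters of the estrogen-related receptors were in 0 of either and in 0.423% of promoters. A gene was counted if any of its promoter entries matched, while the shares are per promoter. The promoters of *Prkab1*, *Gabpa* and *Esrra* held 65.33%, 59.33% and 66% GC, against a median of 52.67% over all promoters. Those of the 9 genes ran from 46.33% to 82%, and the part of GC content in the matches was not tested. A match describes the letters in the window and no more. The matches in the 10 genes, and that of *Tfam* for comparison, are shown because the same letters occur in regulators and in a target. Each stretch is given 5′ to 3′ on the gene's own strand, with the motif or its reverse complement in capitals.
Prkab1: ctgggcccggCCGGAAGcggaagtggc
Gabpa: agggtaagtgCTTCCGGgtccctcagc
Tfam: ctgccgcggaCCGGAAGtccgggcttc
Esrra: cctccgggtaCGCAGGCGCcgccgcctcc
The *Prkab1* stretch is chr5:116024449-116024475 on the minus strand, with the motif 37 bases before the RefSeq start and inside an untranslated exon of a longer annotated transcript. The *Gabpa* stretch is chr16:84835021-84835047 on the plus strand, 93 bases before the start, and partly in an untranslated exon of a longer transcript. That of *Tfam* is chr10:71238075-71238101 on the minus strand, 47 bases before the start, in an untranslated exon of a longer transcript. That of *Esrra* is chr19:6921885-6921913 on the minus strand, 95 bases before the start and outside the annotated gene. *Prkab1* and *Gabpa*, which both hold the GABPA letters, were the highest and the lowest of the 8 tested genes in level per length.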

How the data were processed

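RNA of 6 pools of M II oocytes was compared, 3 control and 3 quercetin, grouped by their labels. The authors deposited raw counts, that is, reads per Ensembl gene and pool without normalization. The study's methods name Hisat2 and GRCm38, while the submitters' processing notes name TopHat2 2.0.6 and CASAVA 1.8; the counting program, its strand setting and its treatment of reads that match several genes are not given in the sources used here. Symbols matched 53274 identifiers, and lengths and positions came from GENCODE M21 on GRCm38. Counts were filtered with filterByExpr (minimum count 10), scaled by TMM and tested with edgeR 4.0.16 (glmQLFit and glmQLFTest, R 4.3.3), with Benjamini-Hochberg adjustment over 11842 genes. Standard errors were the log2 fold change divided by the square root of F, and 95% intervals use the fit's degrees of freedom. Permutation tests are two-sided on log2(CPM + 1).

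The members and the gene lists were chosen with earlier results of these data known. Named genes are the 10 members, the 3 genes most like *Prkab1* and, of each pathway list, its most abundant gene and up to 4 with an unadjusted p under 0.05; all other pathway genes and single markers were named after their values were seen. Alternatives were limma-voom (limma 3.58.1), DESeq2 1.42.0, the likelihood ratio test of edgeR, 2 scalings, 2 filters, leaving out each pool, the replicate number as a term, and 2 other length scales. The same alternatives for *Stradb*, *Ulk1* and *Atp5b*, the 2 scalings for other groups that did not overlap, and ratios by the longest transcript were chosen after seeing the data.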

Additional observations from a re-analysis of the deposited data

How the results depend on the processing

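Of the members tested in each alternative, 0 passed both criteria. These were 8 of the 10 genes, except for all 10 with no filter beyond 1 count and 7 with at least 10 counts in every pool. DESeq2 gave no adjusted p for *Ppargc1b*, *Pprc1* and *Gabpa*. Over all genes the count moved from 0 to 12 with DESeq2, 16 with edgeR's likelihood ratio test and 3 with no filter beyond 1 count, and was 477 at an unadjusted p under 0.05; leaving out 1 pool gave 0 to 7. At that unadjusted threshold it gave 241 (without control replicate 2) to 1563 (without quercetin replicate 3). Genes of the 10 whose groups did not overlap numbered 0 to 1 with 1 pool left out (*Ppargc1b* lower without control replicate 3 or quercetin replicate 1, *Nrf1* higher without quercetin replicate 2, *Stk11* lower without quercetin replicate 3). In these fits 8.07% to 14.1% of tested genes lay all above and 8.14% to 17.3% all below, the highest shares being those without quercetin replicate 3. The log2 fold changes of *Ppargc1b* and *Stk11* stayed below 0 in all 14 alternatives. With 1 pool left out, *Ppargc1b* ranged from -0.74 (without quercetin replicate 1) to -0.32 (without control replicate 1). The other 6 tested genes changed sign in 15 of 111 values over the 8 genes, and the cause was not tested. Leaving out 1 pool gave *Pprc1* -0.18 to 0.36 (-0.017 without quercetin replicate 1), *Nrf1* -0.078 to 0.33, *Gabpa* -0.48 to 1.02 (-0.28 and -0.23 without control replicates 1 and 3), *Prkaa1* -0.36 to 0.25 (-0.09 without control replicate 1), *Prkaa2* -0.52 to 0.34 (-0.21 without control replicate 1) and *Prkab1* -0.0099 to 0.15. Scaling by library size alone gave *Gabpa* -0.044 and *Prkaa1* -0.0041, and limma-voom gave *Prkaa1* -0.0080. With no filter *Esrra*, at 0 in 5 of 6 pools, had an unadjusted p of 0.0308 and an adjusted p of 0.834 in edgeR's test. Scaling by library size alone also split the genes at an unadjusted p under 0.05 into 145 higher and 359 lower, against 253 and 224. *Stradb*, *Ulk1* and *Atp5b* kept their direction in 14 of 14 alternatives, with adjusted p of at least 0.266 in each; an unadjusted p under 0.05 was seen in 14, 5 and 0 of them. Scaled by library size alone, *Stradb*, *Atp5b*, *Gdf9* and the summed cumulus markers overlapped between groups. At these depths the genes with under 10 counts in most pools allow no statement on a change.

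Replicate numbers are shared by the groups, but their deviations did not correlate at over 0.1 in each number (0.289, 0.110 and -0.031 for replicates 1 to 3), so they were not taken as pairs. With the number as a replicate block 0 genes passed, as without it, and *Prkaa1* was at -0.00036; of the 6 pools, not every one correlated best with its own number.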

Other observations

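Some genes of the lists varied widely within a group. *Flcn*, which encodes folliculin, a partner of the AMPK-binding proteins FNIP1 and FNIP2, had 519, 81 and 561 counts in the control pools and 124, 137 and 418 in the quercetin pools. Control replicate 2 and quercetin replicates 1 and 2 were thus low and the other 3 pools high. The gene for its partner, *Fnip1*, had 943 to 1292 counts in all 6 pools. Among the oocyte markers, *Zp2* had 1990, 12980 and 5601 counts in the control pools and 1045, 7734 and 11260 in the quercetin pools, so that replicate 1 was the lowest of each group, as it was for *Prkaa2*. In CPM this held for 6 of the 12 oocyte markers (*Bmp15*, *Zp1*, *Zp2*, *Zp3*, *Ooep* and *Nlrp5*). Replicate 2 was the lowest of each group in 1 of the 12, *Gdf9*, and replicate 3 in 1, *Oosp1*.

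Of the 17 cumulus and granulosa cell markers 5 were tested, of which 4 had a log2 fold change above 0 and 1, *Ptgs2*, below (3 and 2 when scaled by library size alone). At an unadjusted p under 0.05 there was 1 higher (2.14% of tested genes) and 0 lower. This was *Kitl*, with 71, 64 and 77 counts in the control pools and 95, 112 and 106 in the quercetin pools (log2 fold change 0.59, interval from 0.11 to 1.07, adjusted p = 0.988 in edgeR's test). *Ptgs2* had 31, 11 and 13 counts in the control pools and 11, 4 and 18 in the quercetin pools. In 2 of the 5, *Kitl* and *Cyp19a1*, the quercetin pools all lay above the controls (5.42% of tested genes did), also when scaled by library size alone (3.9%). Of the 12 markers with too few counts to be tested, 5 were at 0 in every pool, and the other 7 had at most 18 counts in any pool. Summed over the control pools and over the quercetin pools, these 7 had 0 and 8 counts (*Lhcgr*), 7 and 12 (*Inha*), 4 and 13 (*Inhba*), 4 and 11 (*Cyp11a1*), 0 and 14 (*Tnfaip6*), 35 and 26 (*Fshr*) and 6 and 1 (*Star*). Of the 7, 2 had counts in each quercetin pool and none in any control pool: *Lhcgr* (2, 4 and 2) and *Tnfaip6* (2, 8 and 4). The counts of all 7 are too few for a statement on a change. These genes were picked after their values were seen.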
